A study of Mus musculus with 27 samples.

Results

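Lysosomal hydrolases, lysosomal membrane proteins and the genes that acidify the lysosome were followed in mouse thyroid proliferative lesions. The 48 genes were taken from a list of lysosome genes other than cathepsins and matched by symbol to the 54532 gene rows of the count table, and all 48 were found. The study concerns thyroid lesions induced by radiation in mice, and its tissue was cut out by laser microdissection and sequenced from the 3′ ends of transcripts. Proliferative lesions (PL, 9 libraries) came from exposed mice. Normal tissue (NT, 9 libraries) came from the same 9 exposed mice, had histologic abnormalities beside it, and was paired with PL by mouse number. Normal control tissue (NCT, 9 libraries) came from 9 mice that had not been exposed. Each group held 6 females and 3 males. The labels name no dose, strain or age, and no allele or agent besides the exposure.

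The lysosome is the acidic compartment in which cells break down proteins, glycans and lipids. A proton pump (the V-ATPase) acidifies it, soluble hydrolases are brought to it by mannose 6-phosphate receptors, and carriers and channels in its membrane export the products and ions. Follicular cells of the thyroid take up thyroglobulin from the follicle lumen and digest it in lysosomes to release thyroid hormone. The transcription factors TFEB and TFE3 bind a palindromic DNA element, CACGTG within a longer consensus, before many lysosome genes.

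Short stretches around that element are shown for the genes that rose in either PL comparison and whose promoter window holds it, with Cln3 added. Windows from RefSeq (build GRCm38.p6) ran from 250 bases before to 50 bases after each gene's start, and 41 of the 48 genes had one. CACGTG, a palindrome and therefore the same on both strands, was found in windows of 12 of the 41 genes (29.3%), against 8.09% of all 27025 genes with windows. The longer GTCACGTG, searched on both strands and always containing CACGTG, was found in 26.8% of the 41 genes and in 2.55% of all genes. The stretches are printed 5′ to 3′ on the strand of the gene, with the motif in capitals, and the positions count bases before the RefSeq start. For Naglu and Cln3 the motif lies inside the annotated gene, whose start is upstream of the RefSeq start used. Another Cln3 window, at the upstream start, held 0 copies. For Gla the nearer of 2 copies is shown.
Glb1, chr9:114401018-114401047, plus strand, 48 bases before the start: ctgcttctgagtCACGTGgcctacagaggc
Naglu, chr11:101070009-101070038, plus strand, 73 bases before: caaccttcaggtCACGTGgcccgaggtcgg
Gaa, chr11:119267811-119267840, plus strand, 140 bases before: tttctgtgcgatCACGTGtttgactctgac
Gla, chrX:134601182-134601211, minus strand, 194 bases before: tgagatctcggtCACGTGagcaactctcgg
Cln3, chr7:126583340-126583369, minus strand, 121 bases before: cacgggtactGTCACGTGACccccaacctg
The Cln3 stretch is shown for its longer palindrome, which a window of Igf2r also held, although neither gene passed a test. Of the 13 genes that were higher in PL in at least 1 comparison, 11 had a window and 4 of these held CACGTG (Glb1, Naglu, Gaa and Gla). Among the other 30 genes with a window, 8 held it. These include Lamp1 with 4 copies and Mcoln1 and Igf2r with 2 each, none of which passed a test. A match is a description of letters, not of binding.

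Library totals ran between 2923851 and 14148601 counts (medians 6479022 in PL, 7220957 in NT and 4622595 in NCT). All 48 genes had counts in every library and passed the filter on low counts in every comparison. The lowest count of any of them in any library was 6, for Manba, the lysosomal beta-mannosidase. The thyroid label was checked with thyroglobulin, whose Tg level was between 9455 and 33558 CPM (a count scaled to its library's total with TMM factors) in PL, between 12532 and 39014 in NT and between 26021 and 60010 in NCT. Some libraries carried much parathyroid hormone or gastric lipase transcript: PL replicate 2 (27396 CPM of Pth), NT replicates 7 and 9 (18049 and 25708), NCT replicates 5 and 8 (4485 and 2409) and NCT replicate 9 (9792 CPM of Lipf). The calls among the 48 genes in both PL comparisons are given with and without these libraries. The marker lists, the other gene lists, the summed levels and the sex fits include them throughout.

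**Figure D1:**
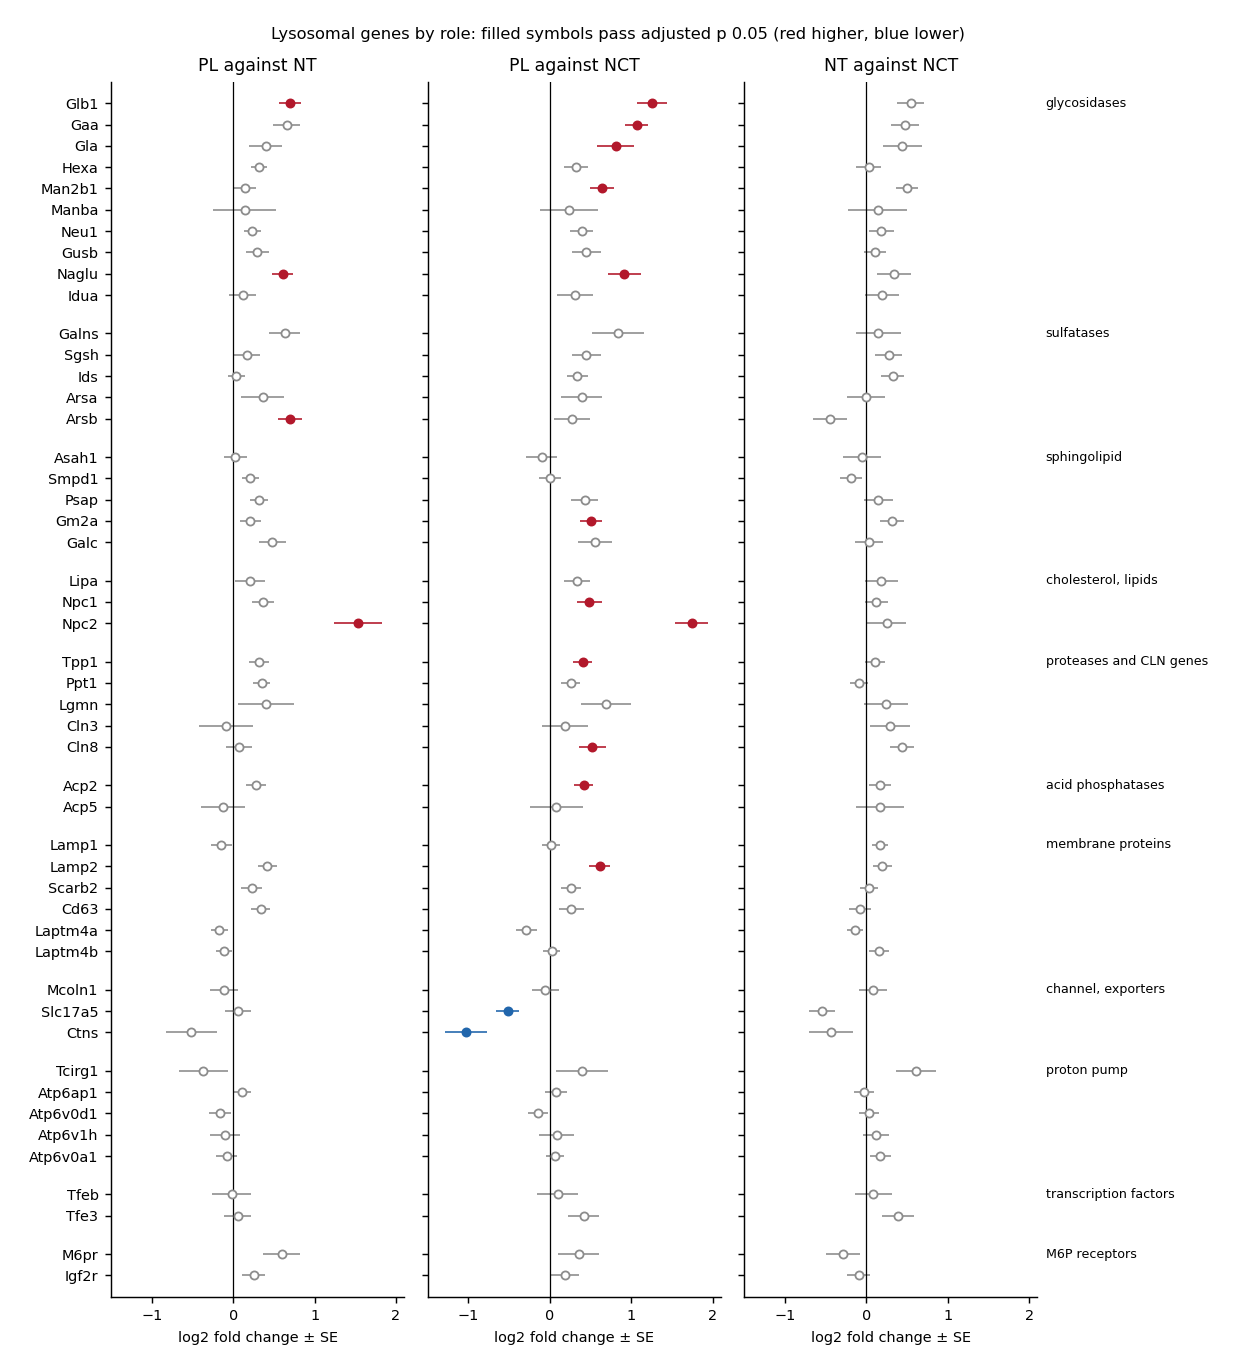
Log2 fold changes of the 48 genes, grouped by role, in PL against NT, PL against NCT and NT against NCT (left to right); points are fitted values, bars are 1 standard error, and filled symbols mark genes past an adjusted p of 0.05 (red higher, blue lower). Glycosidases lie to the right of 0 in all 3 panels, and the exporters Ctns and Slc17a5 lie to the left in PL against NCT.

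PL against NT asks what differs between a lesion and the normal tissue of the same thyroid. Of the 48 genes, 4 rose (Glb1, Arsb, Naglu and Npc2) and 0 fell at an adjusted p of at most 0.05 (edgeR's quasi-likelihood test with the mouse as a block, Benjamini-Hochberg adjustment over 14461 genes). Over all genes tested, 3.08% passed, with 1.76% higher and 1.31% lower. An unadjusted p under 0.05 was reached by 17 of the 48 upward and by 0 downward, against 8.89% and 8.76% of all genes. The log2 fold change was above 0 for 36 of 48 genes, against 50.2% of all genes, and its median was 0.21, against 0.00 over all genes. In bulk tissue, fewer cells of a type and less RNA per cell cannot be told apart.

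The largest fold of the 4 was that of Npc2 (chr12:84754562-84773152, minus strand, GRCm38 as for all gene positions here), which carries cholesterol within the lysosome to NPC1. In PL it had 916, 1818 and 3352 CPM (lowest, median, highest of 9 libraries), in NT 257, 623 and 1391 CPM, and in NCT 431, 622 and 685 CPM. Its log2 fold change in PL against NT was 1.53 (SE 0.29, adjusted p = 0.0236), and it was higher in the lesion of 9 of 9 mice. The PL and NT ranges overlapped. Of the 48 genes 4 were higher in the lesion of 9 of 9 mice and 10 in at least 8, against 1.69% and 6.32% of all genes tested. None of the 48 had PL wholly above or wholly below NT, against 0.0692% and 0.0484% of all genes.

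Glb1 (chr9:114401076-114474898, plus strand) encodes beta-galactosidase, which removes galactose from glycans and gangliosides. It had 60.02, 101 and 140 CPM in PL, 39.1, 49.3 and 82.8 CPM in NT, and 28.4, 40.5 and 54.3 CPM in NCT, with the PL and NT ranges overlapping. The log2 fold change in PL against NT was 0.70 (SE 0.13, adjusted p = 0.0135), and the gene was higher in 9 of 9 mice. Because Glb1 overlaps the coding gene Tmppe on the same strand, its count is uncertain to that extent. Naglu (chr11:101070012-101077672, plus strand) encodes the N-acetylglucosaminidase of heparan sulfate breakdown. It had 31.1, 42.8 and 81.9 CPM in PL, 12.3, 33.5 and 41.6 CPM in NT, and 9.76, 24.2 and 34.7 CPM in NCT, and PL and NT overlapped. Its log2 fold change in PL against NT was 0.61 (SE 0.13, adjusted p = 0.0235), again with 9 of 9 mice higher. Arsb (chr13:93771630-93943016, plus strand) encodes arylsulfatase B, which removes sulfate from dermatan and chondroitin sulfate. It had 14.0, 18.4 and 48.3 CPM in PL, 6.96, 14.3 and 24.9 CPM in NT, and 12.7, 16.1 and 27.1 CPM in NCT, so that NCT lay among the PL values. The log2 fold change in PL against NT was 0.70 (SE 0.15, adjusted p = 0.0225), with 9 of 9 mice higher, and in PL against NCT it was 0.27 (adjusted p = 0.506).

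The 4 calls depended on which mice were included, numbered here by replicate. Without the 6 libraries of mice 2, 7 and 9, whose lesion or normal tissue held the parathyroid transcript, 0 of the 48 genes passed, with log2 fold changes of 0.76 for Glb1 (adjusted p = 0.0676), 0.70 for Arsb (0.118), 0.52 for Naglu (0.141) and 1.34 for Npc2 (0.0962). Likewise, among the 6 females alone 0 passed. Over all genes, 95 passed without mice 2, 7 and 9 and 6 passed among females, against 445 with all 9 mice. With females only, the log2 fold changes were 0.72 for Glb1, 0.58 for Arsb, 0.46 for Naglu and 1.21 for Npc2. With mouse 8 left out 1 gene (Glb1) passed, and with mouse 3 left out 2 passed. Over all genes, 137 passed without mouse 8 and 209 without mouse 3. Without mouse 8, Naglu had an adjusted p of 0.0708. Arsb missed the threshold without mouse 3, 4 or 8 (log2 fold change 0.65 to 0.68, adjusted p between 0.0524 and 0.07). Npc2 missed it without mouse 3, 7 or 8 (log2 fold change 1.43 to 1.54, adjusted p between 0.0506 and 0.0662). Glb1 passed in all 9 fits that left out a mouse. Without the mouse block 2 genes passed, and Arsb and Naglu did not (adjusted p 0.115 and 0.145). Over the 19 alternative fits the adjusted p ran between 7.41e-05 and 0.141 for Glb1, 0.000941 and 0.283 for Arsb, 0.00145 and 0.232 for Naglu, and 4.94e-05 and 0.1 for Npc2.

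By role, 2 of 10 glycosidases rose in PL against NT, 10 of 10 had a log2 fold change above 0, and the median was 0.31. Gaa, the acid glucosidase that degrades glycogen, had a log2 fold change of 0.65 (SE 0.17, adjusted p = 0.0522) and was higher in 7 of 9 mice. Of the 5 sulfatases 1 rose (median 0.36), and of the 3 cholesterol and ester lipid genes 1 rose (median 0.36). None of the 5 sphingolipid enzymes and activators passed (median 0.21). Galc, the galactosylceramidase, had the smallest p among them (log2 fold change 0.48, adjusted p = 0.122). Of the protease, thioesterase and ceroid lipofuscinosis genes 0 of 5 passed (median 0.32), with Ppt1, palmitoyl-protein thioesterase, at 0.35 (adjusted p = 0.0843). Among the 6 membrane proteins (median 0.06) none passed, and Lamp2, a structural membrane glycoprotein, had 0.42 (adjusted p = 0.072) while Lamp1, its relative, had −0.15 (adjusted p = 0.599).

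None of the 5 proton pump genes (median −0.10) and none of the 3 channel and exporter genes (median −0.12) passed in PL against NT. Tcirg1, a pump subunit, had −0.37 (adjusted p = 0.582) and Atp6v0d1, a membrane-domain subunit, −0.16 (adjusted p = 0.583). Ctns, which exports cystine from the lysosome, had −0.51 (adjusted p = 0.433). The transcription factors Tfeb (−0.02, adjusted p = 0.978) and Tfe3 (0.05, adjusted p = 0.905) did not pass. M6pr, the cation-dependent mannose 6-phosphate receptor, had 0.59 (adjusted p = 0.184). The acid phosphatase Acp2 had 0.28 (adjusted p = 0.265).

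**Figure D2:**
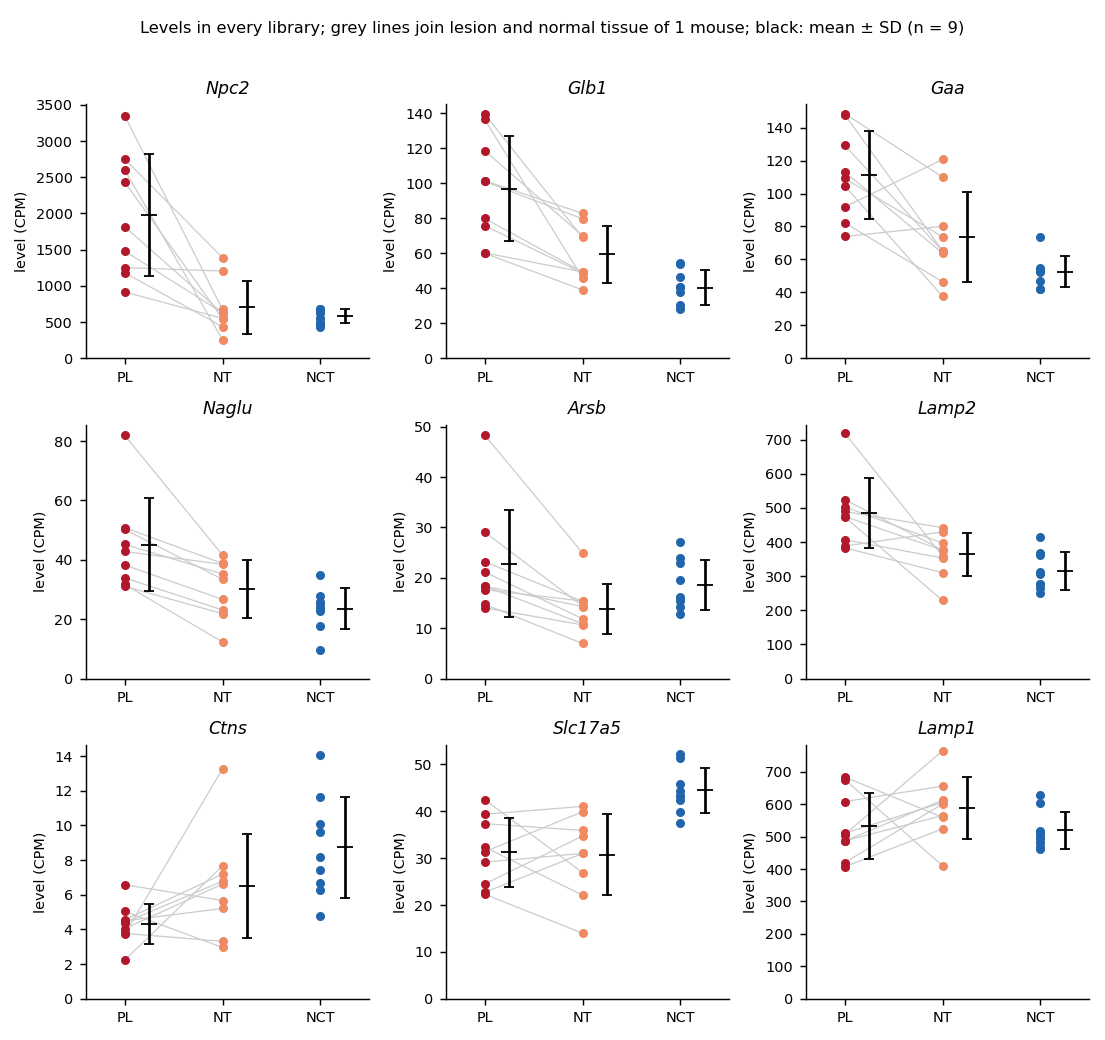
Level of 9 genes in CPM (vertical axis) in the libraries of PL, NT and NCT (left to right); points are libraries, grey lines join PL and NT of the same mouse, and bars give the mean and SD of 9 libraries. Npc2 reaches 3352 CPM in PL, against 1391 in NT and 685 in NCT.

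PL against NCT compares lesions with thyroid from unexposed mice, which shares the PL libraries with the comparison above. Of the 48 genes, 12 rose and 2 fell (edgeR's quasi-likelihood test, Benjamini-Hochberg adjustment over 14234 genes), against 5.45% and 4.62% of all genes tested (10.1% in either direction). Without adjustment, 23 reached a p under 0.05 upward and 3 downward, against 12.3% and 11.2%. A log2 fold change above 0 was found for 42 of 48 genes, against 50.5% of all, with a median of 0.34 against 0.00 over all genes. In 4 genes (Npc2, Gaa, Glb1 and Acp2) the PL libraries all lay above the NCT libraries, against 0.555% of all genes, and in 0 genes all below, against 0.457%.

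Npc2 had a log2 fold change of 1.74 (SE 0.21, adjusted p = 1.52e-05) in PL against NCT, and its PL and NCT ranges did not overlap. For Glb1 it was 1.25 (SE 0.18, adjusted p = 9.41e-05). Gaa (chr11:119267887-119285454, plus strand) had 73.9, 109 and 149 CPM in PL, 37.6, 65.2 and 121 CPM in NT, and 41.8, 53.7 and 73.6 CPM in NCT. The lowest PL library was just above the highest NCT library, and the log2 fold change was 1.07 (SE 0.14, adjusted p = 3.71e-05). These 3 genes passed in all 31 alternative fits of this comparison.

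The other glycosidases that rose were Naglu (log2 fold change 0.92, SE 0.20, adjusted p = 0.00449), Man2b1 and Gla. Man2b1, the lysosomal alpha-mannosidase, had 65.1, 85.7 and 125 CPM in PL, 62.8, 78.9 and 117 CPM in NT, and 34.0, 58.4 and 74.2 CPM in NCT. PL differed from NCT by a log2 fold change of 0.64 (SE 0.15, adjusted p = 0.00704), and PL and NCT overlapped. Gla, the alpha-galactosidase, had 8.40, 14.4 and 17.1 CPM in PL, 6.31, 9.88 and 15.3 CPM in NT, and 2.24, 8.65 and 9.78 CPM in NCT. Its fitted log2 fold change was 0.81 (SE 0.23, adjusted p = 0.0261), with overlap between PL and NCT. All 10 glycosidases had values above 0, with a median of 0.55, and 5 of them passed.

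In each of the other hydrolase classes 0 to 2 genes passed. Gm2a, the activator of ganglioside GM2 breakdown, had 95.8, 117 and 190 CPM in PL, 73.4, 99.7 and 150 CPM in NT, and 66.7, 85.2 and 112 CPM in NCT, with overlapping PL and NCT ranges. Its log2 fold change was 0.50 (SE 0.14, adjusted p = 0.0206). It was the 1 of 5 sphingolipid genes that rose (median 0.43). Of the 5 sulfatases 0 passed (median 0.39), and Ids, iduronate sulfatase, had 0.34 (adjusted p = 0.0979).

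Npc1, the membrane partner of NPC2 in cholesterol export, had 31.4, 51.1 and 67.9 CPM in PL, 26.0, 37.7 and 54.3 CPM in NT, and 23.1, 33.8 and 48.5 CPM in NCT, with overlap. PL differed from NCT by a log2 fold change of 0.48 (SE 0.15, adjusted p = 0.0442). Rmc1 overlaps it on the other strand, and the strand setting of the counting was not given in the sources used here. Tpp1, tripeptidyl peptidase, had 148, 197 and 236 CPM in PL, 113, 162 and 202 CPM in NT, and 118, 144 and 185 CPM in NCT, with PL and NCT overlapping. Its fitted log2 fold change was 0.40 (SE 0.12, adjusted p = 0.0297). Cln8, a membrane protein of the endoplasmic reticulum that exports lysosomal enzymes, had 15.7, 23.9 and 28.4 CPM in PL, 15.994, 19.7 and 25.3 CPM in NT, and 12.1, 13.2 and 20.2 CPM in NCT, with overlap. The log2 fold change was 0.52 (SE 0.17, adjusted p = 0.0475).

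Acp2 had 49.2, 52.4 and 63.6 CPM in PL, 31.9, 46.9 and 64.6 CPM in NT, and 27.9, 43.1 and 47.0 CPM in NCT. The lowest PL library lay above the highest NCT library, and the log2 fold change was 0.42 (SE 0.11, adjusted p = 0.0203). Ddb2 overlaps Acp2 on the other strand. Lamp2 (chrX:38401357-38456454, minus strand) had 383, 475 and 720 CPM in PL, 229, 376 and 442 CPM in NT, and 250, 307 and 414 CPM in NCT, where PL and NCT overlapped. Its log2 fold change was 0.61 (SE 0.13, adjusted p = 0.00301). Lamp1 had 407, 506 and 684 CPM in PL, 410, 601 and 765 CPM in NT, and 463, 498 and 628 CPM in NCT, and its log2 fold change of 0.02 (adjusted p = 0.953) turned to −0.058 with females only.

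Both genes that fell encode exporters. Ctns (chr11:73183596-73199042, minus strand) had 2.23, 4.40 and 6.58 CPM in PL, 2.96, 6.61 and 13.3 CPM in NT, and 4.75, 8.15 and 14.1 CPM in NCT, and PL and NCT overlapped. PL differed from NCT by a log2 fold change of −1.03 (SE 0.26, adjusted p = 0.0112). Slc17a5 (chr9:78536488-78588041, minus strand), which exports sialic acid, had 22.3, 31.4 and 42.5 CPM in PL, 14.0, 31.0 and 41.0 CPM in NT, and 37.6, 43.3 and 52.3 CPM in NCT, with overlap. Its fitted log2 fold change was −0.52 (SE 0.14, adjusted p = 0.0189). Mcoln1, the TRPML1 ion channel of the same class, had −0.06 and did not pass (unadjusted p = 0.736). The class median was −0.52. The NT values of Slc17a5 were close to those of PL, and its log2 fold change in PL against NT was 0.06.

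The 5 proton pump genes did not pass in PL against NCT (median 0.07). Tcirg1 had 0.39 (adjusted p = 0.504) and Atp6v0d1 −0.15 (adjusted p = 0.528), with levels of 32.6 ± 5.13 CPM in PL, 36.8 ± 5.66 CPM in NT and 35.7 ± 5.35 CPM in NCT (SD, n = 9 each). Tfe3 had 20.1 ± 4.03 CPM in PL, 19.8 ± 5.50 CPM in NT and 14.9 ± 4.46 CPM in NCT, and its log2 fold change in PL against NCT was 0.41 (adjusted p = 0.174). Tfeb had a median of 8.15 CPM in PL, 8.35 CPM in NT and 8.30 CPM in NCT, with a log2 fold change of 0.10 (adjusted p = 0.864) in PL against NCT. M6pr had 0.35 (adjusted p = 0.422) and the median of the receptors was 0.27.

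Of the 14 genes called, 11 passed in all 18 fits that left out 1 library, the exceptions being Tpp1, Npc1 and Cln8. Tpp1 missed the threshold without PL replicate 8 or NCT replicate 5, 6, 8 or 9 (adjusted p between 0.0501 and 0.059). Npc1 missed it without any 1 of 13 libraries: PL replicates 1, 3, 4, 5, 6 and 8, and NCT replicates 1, 2, 4, 5, 6, 8 and 9 (log2 fold change 0.41 to 0.49, adjusted p between 0.0529 and 0.0916). Cln8 missed it without any 1 of 12: PL replicates 1, 2, 3, 6 and 8, and NCT replicates 1, 2, 3, 5, 7, 8 and 9 (0.46 to 0.54, adjusted p between 0.0589 and 0.0945). Without the libraries rich in Pth or Lipf, 6 genes rose (Npc2, Gaa, Glb1, Lamp2, Naglu and Man2b1) and 1, Ctns, fell. The calls lost there were Slc17a5 (log2 fold change −0.49, adjusted p = 0.106), Acp2 (0.46, 0.0648), Gm2a (0.56, 0.0522) and Gla (0.95, 0.0551). Tpp1 (0.28, 0.239), Npc1 (0.50, 0.111) and Cln8 (0.48, 0.18) were lost as well. Among females alone 4 rose (Npc2, Gaa, Glb1 and Naglu) and 0 fell, with Slc17a5 at −0.52 (adjusted p = 0.144) and Ctns at −1.24 (0.0506). The mouse numbers fall into series, and 1 of these holds 4 NCT libraries but 1 PL library. With the series as a covariate, Ctns (adjusted p = 0.0891), Acp2 (0.0698), Gla (0.0671), Gm2a (0.0741), Npc1 (0.134) and Cln8 (0.123) missed the threshold, and Hexa, Neu1, Ids and Psap passed it (adjusted p between 0.016 and 0.0485).

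NT against NCT asks what differs in normal tissue of exposed mice, and shares libraries with both other comparisons. None of the 48 genes passed (edgeR's quasi-likelihood test), against 0.0277% of 14447 genes (0.00692% higher and 0.0208% lower). Without adjustment, 7 reached a p under 0.05 upward and 2 downward, against 5.6% and 5.98%. In 0 of the 48 genes did NT lie wholly above or below NCT, against 0.0208% and 0.0346% of all genes. DESeq2's Wald test also called 0 of the 48. The median was 0.15, against 0.01 over all genes, with 36 of 48 above 0, against 52.2%. The median of the 48 turned to −0.032 with the adipocyte score as a covariate and was 0.019 with the macrophage score. By role, the medians included 0.26 for the glycosidases, all 10 of which had values above 0, 0.12 for the proton pump genes and −0.44 for the channel and exporters. The smallest p belonged to Man2b1 (log2 fold change 0.50, SE 0.14, adjusted p = 0.161), followed by Slc17a5 (−0.54, SE 0.16, adjusted p = 0.192) and Glb1 (0.54, SE 0.16, adjusted p = 0.207).

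The 3 comparisons share libraries, and their values are given side by side. Npc2 had log2 fold changes of 1.53 in PL against NT, 1.74 in PL against NCT and 0.25 in NT against NCT. For Glb1 the values were 0.70, 1.25 and 0.54, and for Man2b1 they were 0.14, 0.64 and 0.50. Arsb had 0.70 in PL against NT, 0.27 in PL against NCT and −0.44 in NT against NCT. Of the 48 genes, 3 rose in both PL comparisons (Glb1, Naglu and Npc2), 1 was called in PL against NT alone, 11 in PL against NCT alone and 33 in no comparison. Whether these comparisons differ from each other was not tested.

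**Figure D3:**
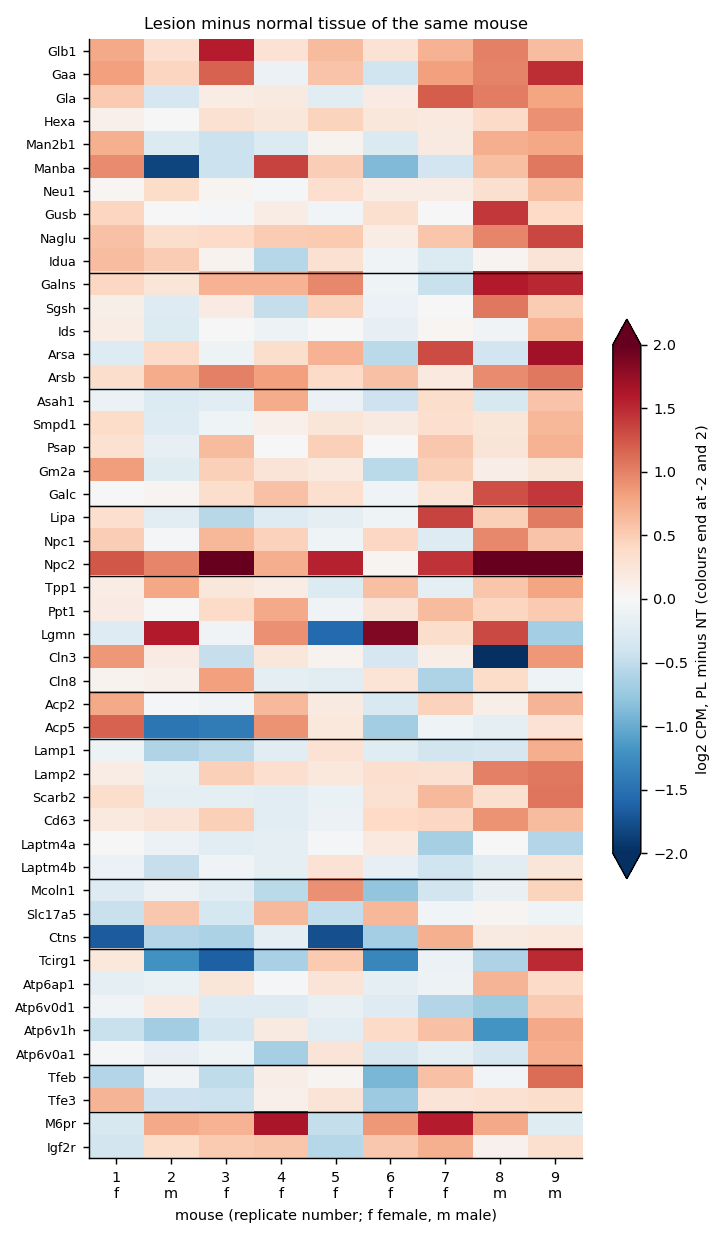
Difference in log2 CPM between PL and NT of the same mouse (colour) for the 48 genes (vertical axis, by role) and the 9 mice (horizontal axis). The column of mouse 9 has the most genes higher in the lesion, 43 of 48, and that of mouse 2 the fewest, 20 of 48. NT of mouse 9 and PL of mouse 2 were rich in parathyroid transcript.

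The mice varied in how many of the 48 genes were higher in the lesion. The count was 43 in mouse 9 (median log2 difference 0.68) and 34 in mouse 8 (0.32), both males. In mouse 2, the third male, it was 20 (−0.05). Among females it ran between 23 (mouse 6) and 32 (mouse 1). The median log2 difference was also below 0 in mouse 6 (−0.07) and in mouse 3 (−0.01, 24 genes higher). Over all genes tested, the median difference per mouse ran between −0.04 (mouse 4) and 0.03 (mouse 9). The pairs also differed in transcripts of other tissues. Summed parathyroid markers reached 35424 CPM in NT of mouse 9 and 32949 CPM in NT of mouse 7, which had 30 genes higher. In mouse 2 the lesion held them, at 45657 CPM. Summed airway or squamous markers were 6245, 5998 and 6414 CPM in NT of mice 7, 8 and 9. Whether this shaped the counts was not tested. The Npc2 difference was 3.34 in mouse 9, 2.31 in mouse 8 and 2.15 in mouse 3, and 0.06 in mouse 6. The Glb1 difference was 1.57 in mouse 3 and 0.29 in mice 4 and 6. The within-group coefficient of variation of the 48 genes had a median of 24.9% in PL, 25.2% in NT and 21.3% in NCT, against 31.7%, 28.4% and 29.2% over all genes tested.

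**Figure D4:**
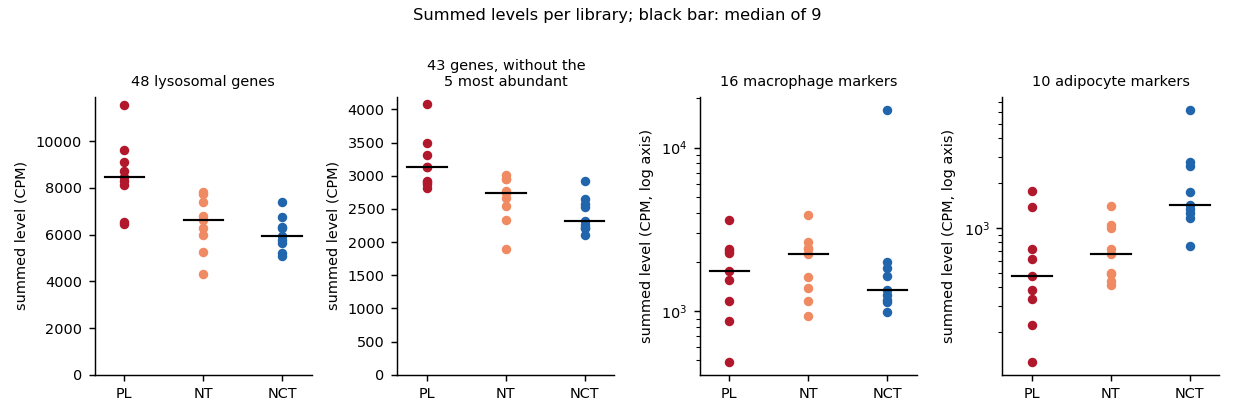
Summed CPM in each library of PL, NT and NCT (left to right), for the 48 genes, for these without the 5 most abundant, for 16 macrophage markers and for 10 adipocyte markers; points are libraries and bars are medians. The medians of the 48-gene sum are 8479 in PL, 6634 in NT and 5953 in NCT.

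Summed over the 48 genes, CPM ran between 6459 and 11534 in PL, between 4331 and 7815 in NT and between 5087 and 7405 in NCT. Reads come from 3′ ends, so counts were not divided by transcript length. Npc2, Psap, Laptm4a, Cd63 and Lamp1 together made up 60.8% of the sum. Without them it ran between 2814 and 4079 CPM in PL, between 1899 and 3012 in NT and between 2105 and 2922 in NCT, so the ranges overlapped by either measure.

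Marker lists of the thyroid's own follicular cells and of other cell types were read in the same fits. Over all genes tested, 1.76% rose and 1.31% fell in PL against NT, and 5.45% and 4.62% in PL against NCT. Of 12 follicular genes, 1 rose in PL against NT (Tshr, the thyrotropin receptor, log2 fold change 1.40), 11 had values above 0 and the median was 0.42. In PL against NCT, 3 rose and 1, Tg, fell (−0.77, adjusted p = 0.021), with a median of 0.44, and the summed level of the 12 ran between 12631 and 37214 CPM in PL, between 13533 and 43480 in NT and between 27818 and 63056 in NCT. Of 15 tested markers of macrophages, cells rich in lysosomes, 0 rose and 1 (Cd163) fell in PL against NT, and all 15 were below 0 (median −0.32). In PL against NCT 0 passed and 11 of 15 were above 0 (median 0.18). In NT against NCT 0 passed, 14 of 15 were above 0 and 7 had an unadjusted p under 0.05 (median 0.47). Their sum ran between 487 and 3593 CPM in PL (median 1754), between 933 and 3861 in NT (median 2224) and between 987 and 17080 in NCT (median 1347), where the highest value is that of NCT replicate 9. Adipocyte markers had a median of −0.65 in PL against NT and −1.78 in PL against NCT, where 0 of 9 passed and 8 had an unadjusted p under 0.05. In NT against NCT 0 of 9 passed, all 9 were below 0 and 8 had an unadjusted p under 0.05 (median −1.48). Their sum ran between 126 and 1755 CPM in PL, between 414 and 1401 in NT and between 756 and 6210 in NCT. Of 7 C cell markers tested, 5 fell and 1 rose in PL against NT (Scg5, log2 fold change 1.43), and 5 fell and 2 rose in PL against NCT (Scg5 at 1.89 and Calcb at 3.90). Their sums ran between 544 and 1710 CPM in PL, between 586 and 6138 in NT and between 1089 and 7560 in NCT. Airway or squamous epithelium markers fell in 5 of 9 in PL against NT, with sums between 26.5 and 456 CPM in PL, between 122 and 6414 in NT and between 352 and 4680 in NCT. No list had a marker at 0 in all libraries. None of 6 fibroblast markers passed in PL against NT, where 6 of 6 were below 0 and 3 had an unadjusted p under 0.05, and 3 of 6 fell in PL against NCT. Of 6 endothelial markers 0 passed in PL against NT, with 6 of 6 below 0, and 1 fell in PL against NCT (Tek, −1.03).

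With the adipocyte score as a covariate, 3 of the 48 genes rose in PL against NCT (Npc2, Gaa and Glb1) and 0 fell, while 121 of all genes passed, against 1433 without it. Among the 11 calls lost, the log2 fold change was −1.37 for Ctns, −0.50 for Slc17a5, 0.53 for Acp2, 0.54 for Npc1 and 0.55 for Cln8, and it was 0.65 for Naglu, 0.70 for Gla, 0.48 for Lamp2, 0.53 for Man2b1, 0.44 for Gm2a and 0.33 for Tpp1. With the macrophage score as a covariate 2 genes rose in PL against NT (Glb1 and Naglu), and Npc2 (1.59, adjusted p = 0.066) and Arsb (0.63, adjusted p = 0.0653) missed the threshold. The part of follicular, C cell, airway, fibroblast and endothelial markers in the results was not tested.

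Other lysosome genes, listed with the members in view of earlier results, were set beside them. Of 34 tested in PL against NT, 2 rose and 0 fell (median 0.19), against 1.76% and 1.31% of all genes. Cd164, a membrane sialomucin, had 195, 301 and 434 CPM in PL, 168, 225 and 249 CPM in NT, and 136, 195 and 316 CPM in NCT, with overlap and a log2 fold change in PL against NT of 0.53 (adjusted p = 0.016). Aga, which cleaves the asparagine link of glycoproteins, had 0.73 (adjusted p = 0.0191). Of 33 tested in PL against NCT, 8 rose and 1 fell (median 0.33), against 5.45% and 4.62% of all genes. Litaf, an endosomal membrane protein, led those that rose, at 0.72 (adjusted p = 0.00182). Abca2, a lysosomal lipid transporter, fell at −0.92 (adjusted p = 0.00196). None passed in NT against NCT.

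Of 19 other proton pump subunits 16 were tested, and in PL against NT 0 passed (median −0.05). In PL against NCT, 2 rose: Atp6v0e at 0.82 (adjusted p = 0.00307) and the accessory subunit Atp6ap2 at 0.39 (adjusted p = 0.0421), with a median of 0.01. Of all genes tested there, 5.45% rose and 4.62% fell. Atp6v0e had 151, 240 and 422 CPM in PL, 102, 200 and 276 CPM in NT, and 113, 135 and 189 CPM in NCT, with overlap. Of 14 regulators and nutrient sensors tested, 0 rose and 1 fell in PL against NCT: Fnip1, a folliculin partner, at −0.53 (adjusted p = 0.00429). Its PL libraries all lay below the NCT libraries, as in 0.457% of all genes. Of 18 autophagy genes, 0 rose and 1 fell in PL against NCT: Map1lc3a, an LC3 protein, at −0.62 (adjusted p = 0.00625). The 1 lower gene in the regulator list and in the autophagy list is near the share of all genes that fell. Both lists had 0 genes passing in PL against NT, with medians of 0.01 and −0.05.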

How the data were processed

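RNA from laser-microdissected mouse thyroid was prepared with a kit that sequences transcript 3′ ends, per the labels' protocols. The submitters' processing notes name STAR, featureCounts, DESeq2 and the build GRCm38, without versions or roles. The authors deposited raw counts per Ensembl gene for 27 libraries. Of 54532 rows 54409 were matched to symbols, and the 123 others held 0.0251% of counts. No library pair agreed within sampling noise (lowest chi-square per degree of freedom 13.2 among 108 pairs within groups). Nothing shows whether counting used strand, and 11 of the 48 genes overlap another coding gene.

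From these counts, edgeR 4.0.16 (R 4.3.3) gave TMM factors and quasi-likelihood tests after filterByExpr with a minimum count of 10, with Benjamini-Hochberg adjustment over all genes. PL against NT had the mouse as a block, because the labels give both tissues the same mouse number. Deviations of same-mouse samples correlated by −0.0162 to 0.212 (mean 0.13), above 0.1 in 5 of 9 mice. PL against NCT and NT against NCT had no block. CPM were scaled by TMM over the 27 libraries. Alternatives used DESeq2 1.42.0, limma 3.58.1, other filters and scalings, sex, marker scores and left-out libraries, and scripts were tested on simulated data.

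The members and lists were chosen with earlier results of these data known. Genes named in the text are those past the threshold in any comparison, the smallest p of each role class in each comparison, and Lamp1, Atp6v0d1, Tfeb and Tfe3, with up to 3 genes of smallest p from each other list. Manba, Cln3, Hexa, Neu1, Mcoln1, Igf2r, marker genes and the most abundant genes were named after their values or sequences were seen. P-values cover the spread between these 9 animals a group.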

Additional observations from a re-analysis of the deposited data

Results flagged for a closer look

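For the 24 genes given in detail, each group of 9 libraries was searched for a library that stood far from the others, with Dixon's test at 95%. Among 72 groups 11 had one. The test's chance rate of about 1 in 20 assumes independent groups of normally distributed values. These groups come from the same 27 libraries, so whether 11 exceeds chance cannot be told.

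PL replicate 8 stood high in 4 genes. Arsb had 48.3 CPM there, against 29.1 in the next PL library. Galc had 119 CPM, against 67.4. Lamp2 had 720 CPM, against 525. Naglu had 81.9 CPM, against 50.9. The calls of Arsb, Naglu and Npc2 in PL against NT were lost without that mouse, although Npc2 did not stand apart there. Over all genes, 137 passed without that mouse, against 445 with it. Arsb and Npc2 also lost their calls without some other mice.

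Tfeb had 15.995 CPM in PL replicate 9, against 10.2 in the next library. Arsb had 24.9 CPM in NT replicate 8, against 15.4. Ctns had 13.3 CPM in NT replicate 5, against 7.67. Ppt1 was low in NT replicate 4, at 56.3 CPM against 73.6. Gaa had 73.6 CPM in NCT replicate 4, against 54.6. M6pr had 108 CPM in NCT replicate 3, against 69.2. Tfeb had 13.8 CPM in NCT replicate 8, against 9.44.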

How the results depend on the processing

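Precision is limited for low genes, since among the called genes Gla had as few as 10 counts in a library and Ctns 15. It is also limited for males, with 3 in each group. In PL against NT, 445 genes passed the threshold, with 4 members higher and 0 lower. The counts of genes and of members higher became 1361 and 8 with DESeq2's Wald test and 832 and 6 without a filter. In every comparison the Wald fit also used DESeq2's own filtering and scaling, so its shift is not that of the test alone. Without a filter Npc2 missed the threshold, and Gaa, Galc and Lamp2 passed it. The counts were 6 and 0 with females only, 95 and 0 without the libraries rich in Pth or Lipf, and 176 and 2 with the macrophage score. Without the replicate block, 2 members were higher. The mouse pairing rests on shared mouse numbers, and the block changed no other call among the members. In PL against NCT (1433 genes; 12 higher, 2 lower) the members were 7 and 1 at a 1.5-fold minimum. They were 4 and 0 (450 genes) with females only, 6 and 1 (797 genes) without the rich libraries, and 3 and 0 (121 genes) with the adipocyte score. With mouse number series as a covariate, 1 was lower. In NT against NCT (4 genes) the counts were 148 by the Wald test, 0 by limma-voom, 15 without a filter, 1 with females only, 1 without the rich libraries, 7 with mouse number series, and 0 with the adipocyte or macrophage score. The causes of these shifts were not tested, though females only and the library removals leave fewer samples.

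With 1 replicate left out, PL against NT had 137 to 529 genes and 1 to 5 members higher, PL against NCT had 9 to 14 members higher, and NT against NCT had 0 to 12 genes. Signs turned for genes near 0. Tfeb in PL against NT was 0.026 without the block, 0.12 with the macrophage score and −0.17 to 0.093 with a mouse left out, and Tfe3 was −0.025 to 0.15. Tfeb in PL against NCT was −0.13 by limma-voom, −0.10 with mouse number series, −0.19 with the adipocyte score and −0.056 to 0.25 with a library left out. Lamp1 in PL against NCT was −0.058 with females only, −0.0018 without the rich libraries and −0.025 to 0.070 with a library left out. In NT against NCT, Tfeb was −0.069 with mouse number series, −0.058 with the adipocyte score and −0.061 with the macrophage score, Atp6v0d1 was −0.083 with the adipocyte score and −0.026 to 0.077 with a library left out, and Npc2 was −0.10 with the macrophage score. The median of the 48 genes in NT against NCT (0.15) turned to −0.032 with the adipocyte score. Of 605 single-gene values under the settings that left out no single replicate, 535 kept their direction and side of the threshold.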

Other observations

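Sex was examined in an interaction fit for each comparison (males against females). No gene passed in any of the 3 fits (edgeR's quasi-likelihood test), and the smallest adjusted p among the 48 genes was 0.902, in PL against NCT. At an unadjusted p under 0.05 there were 2 of the 48 genes in PL against NT (2.77% of all genes), 3 in PL against NCT (5.13%) and 0 in NT against NCT (2.85%). In PL against NCT these were Npc2, Gaa and Tpp1, with a male minus female difference in log2 fold change of 0.88, 0.67 and 0.50. The groups hold 3 males each.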
